A study of Homo sapiens with 12 samples.

Results

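The genes described here are 10 human genes of S phase entry and origin licensing, which were taken by name: the E2F transcription factors E2F1, E2F2, E2F7 and E2F8, the E-type cyclins CCNE1 and CCNE2, the licensing factors CDC6 and CDT1, the helicase subunit CDC45 and the ubiquitin ligase subunit DTL. They are 10 of the 19775 genes that had at least 1 probe set with a single gene symbol on the array, and they had 19 of the 54613 probe sets that were not array controls. HK-2, an immortalised epithelial line from the proximal tubule of human kidney, was grown in serum-free medium with epidermal growth factor and insulin, seeded 24 h ahead and treated near confluence. The groups were HK-2 cells given a low dose of Ota for 72 h, their vehicle controls at 72 h, cells given the same low dose for 24 h, and their vehicle controls at 24 h, with 3 arrays labelled as biological replicates in each group. Ota is the usual short form of ochratoxin A, a mould toxin that damages the kidney; the labels give the short form only, name no vehicle and give no concentration in the fields used here. All results therefore describe 1 cell line at 1 unstated low dose, and p-values set each difference against the spread between replicate arrays.

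The 12 arrays resembled each other closely within each group, with Pearson correlations between replicate arrays of 0.982 to 0.993. All 5 epithelial markers examined (KRT8, KRT18, KRT19, EPCAM and CDH1) were above the detection filter, and 0 of 5 endothelial and 0 of 4 leukocyte markers were. Of the markers of distal nephron and collecting duct 0 of 4 were, and of the podocyte markers 2 of 4 (PODXL and SYNPO) were. The summed log2 level of the epithelial list was 56.1 to 56.7 in Ota cells and 57.7 to 58.6 in control cells at 72 h. At 24 h it was 55.3 to 57.1 in Ota cells and 56.4 to 58.3 in control cells. At 72 h CDH1 averaged 8.09 in Ota cells and 9.20 in control cells, KRT18 11.94 and 12.81, and KRT8 10.65 and 10.90. The markers KRT19, at 12.11 and 11.79, and EPCAM, at 13.56 and 13.52, went the other way. Of 11 proximal tubule markers with a probe set, only PAX8 passed the filter, and the defining transport genes LRP2, CUBN and AQP1 were at the floor of the scale. Among 6 fibroblast markers DCN, LUM and COL1A1 passed the filter, and the summed log2 level of the whole list was 35.3 to 36.3 in Ota cells at 72 h, 32.3 to 33.2 in control cells at 72 h, 36.7 to 37.6 in Ota cells at 24 h and 36.8 to 37.7 in control cells at 24 h. At 72 h the epithelial sum was thus lower and the fibroblast sum higher in Ota cells, with no overlap between the groups, and the part of either in the results was not tested. The 3′ minus 5′ signal of the actin control probe sets, a measure of RNA integrity in log2 units, averaged 1.28 ± 0.08 in Ota cells and 1.18 ± 0.17 in control cells at 72 h, and 1.17 ± 0.12 in Ota cells and 1.01 ± 0.21 in control cells at 24 h (SD, n = 3 each). Over the whole array at 72 h, 3695 probe sets were higher and 2649 lower in Ota cells than in control cells; after the arrays were shifted to a common median these counts were 3115 and 3401.

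E2F proteins bind DNA, usually with a DP partner such as TFDP1, and switch on genes for DNA replication as cells pass from G1 into S phase. E2F1 and E2F2 activate transcription and are held in check by the retinoblastoma protein, whereas E2F7 and E2F8 are atypical members that repress E2F target genes and are themselves E2F targets. Cyclin E binds CDK2 and drives entry into S phase. CDC6 and CDT1 load the MCM helicase on replication origins in G1, CDC45 joins the loaded helicase when an origin fires, and DTL is the substrate receptor of the CRL4 ubiquitin ligase that destroys CDT1 and the CDK inhibitor p21 on chromatin in S phase. Most of these genes are known E2F targets, and they are typically expressed in proliferating cells and low in resting ones.

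The promoter sequences of the members show how many of them carry an E2F-type site in the windows used. RefSeq windows of 300 bases, running from 250 bases before to 50 bases after an annotated start on GRCh38.p14, were used for 8 member genes with 10 windows in all; E2F8 and CCNE2 were not searched. The letters TTTGGCG or TTTCGCG, searched on both strands, occurred in 6 of the 8 genes (E2F1, E2F2, CDC6, CDC45, CDT1 and DTL), while 3.85% of 27305 genes with such windows held them. The stretches around the matches follow, with the matches in capitals and each sequence read 5′ to 3′ on the strand of its gene.
E2F1, chr20:33686389-33686442, minus strand: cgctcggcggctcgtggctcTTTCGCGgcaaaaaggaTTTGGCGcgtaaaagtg
E2F2, chr1:23531259-23531310, minus strand: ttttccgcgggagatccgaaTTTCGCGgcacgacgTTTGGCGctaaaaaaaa
CDC6, chr17:40287831-40287902, plus strand: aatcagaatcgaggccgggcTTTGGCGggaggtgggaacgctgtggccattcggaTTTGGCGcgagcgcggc
CDC45, chr22:19479875-19479911, plus strand: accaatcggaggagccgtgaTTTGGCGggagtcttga
CDT1, chr16:88803742-88803778, plus strand: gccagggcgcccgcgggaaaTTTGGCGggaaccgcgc
DTL, chr1:212035720-212035768, plus strand: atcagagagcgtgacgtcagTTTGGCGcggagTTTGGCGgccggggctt

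E2F1, E2F2, CDC6 and DTL each carried 2 matches, and CDC45 and CDT1 carried 1, that of CDC45 in only 1 of its 3 windows. With the annotated start as base 0, the matches lay close to it: at -37 and -20 in E2F1, at -57 and -42 in E2F2, at -28 and 7 in CDC6, at -25 in CDC45, at -27 in CDT1 and at -8 and 4 in DTL, each counted to the first base of the match. The windows of E2F7 and CCNE1 held none of these letters, which says nothing of sites outside the window or with other letters. CCAAT, the core of the NF-Y site, was found on either strand in 5 of the 8 genes (E2F1, E2F7, CDC6, CDC45 and DTL), against 39.7% of all genes. The element TTTGAA, the core of the cell cycle homology region found in many G2 and M phase promoters, was found in 0 of the 8 genes, against 18.2% of all genes. No match of 1 motif overlapped a match of another, and a match is a description of letters and not of binding.

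**Figure D1:**
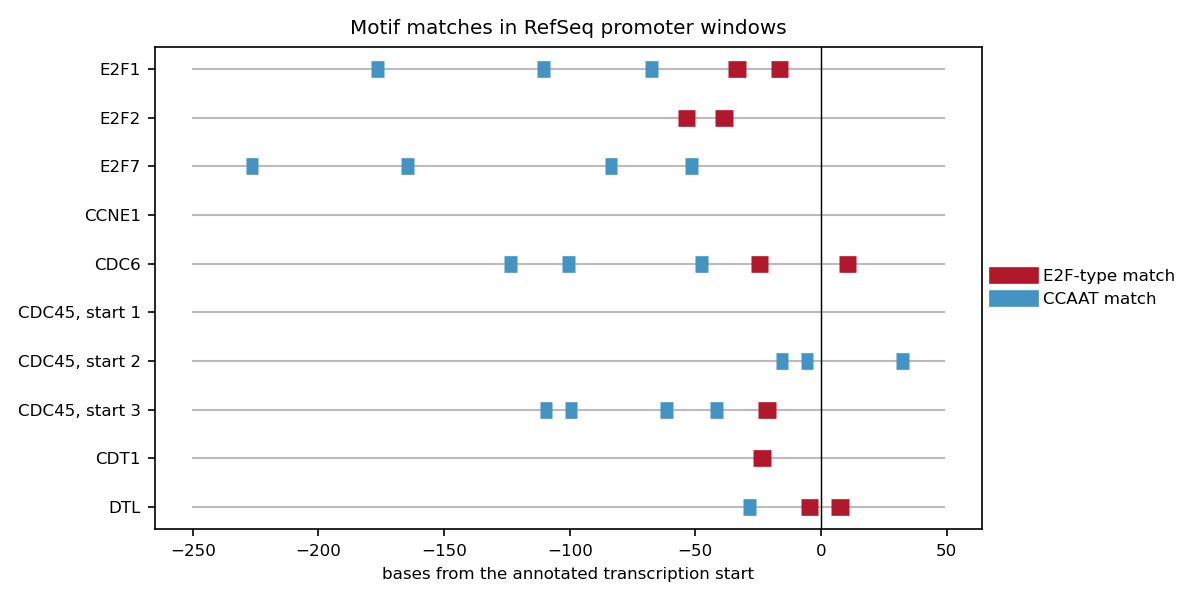
Positions of the E2F-type and CCAAT letters in the promoter windows of the member genes, in bases from the annotated start; each row is 1 window. The E2F-type matches lie between 57 bases before the start and 13 bases after it.

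The first comparison asked how Ota changed these genes after 72 h. At 72 h Ota cells held more RNA of 9 of the 10 genes than control cells, by 1.72-fold for CDT1 to 4.80-fold for E2F8 on each gene's brightest probe set. The E2F factors, both E-type cyclins, CDC45 and DTL were all higher in Ota cells, and CDC6 did not pass the test. CDT1 passed on its brightest probe set and not on its other, 209832_s_at (0.46, limma adjusted p = 0.276). Higher here means against the 72 h controls, in which most members were lower than at 24 h, as given below. Of the 19 member probe sets, 15 passed a filter of log2 4 on at least 3 arrays and stand for all 10 genes. Of those 15, 12 were higher in Ota cells, 0 were lower and 3 did not pass (limma, Benjamini-Hochberg adjusted p below 0.05 over 22477 probe sets). Of all probe sets tested, 16.4% were higher and 11.8% lower. The 12 include 2028_s_at of E2F1, which met the filter mainly through the Ota cells at 72 h, a group in which it was high. With it left out, 11 of 14 were higher. The median difference over the 15 probe sets was 1.61 on the log2 scale, against 0.02 over all probe sets. In bulk RNA, more cells in S phase and more RNA per cell cannot be told apart.

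Among the activators, E2F1 on probe set 204947_at had log2 levels of 7.04, 7.16 and 7.03 in Ota cells, against 5.89, 6.11 and 5.92 in control cells at 72 h. Every Ota array was above every control array. The difference was 1.11 ± 0.16 on the log2 scale (SE), which is 2.15-fold (adjusted p = 0.000484). A second E2F1 probe set, 2028_s_at, was near the floor, with 4.09, 4.52 and 4.07 in Ota cells, against 3.52, 3.50 and 3.53 in control cells. The control arrays lay under the filter of log2 4, so no difference is read from this probe set. E2F2 on 228361_at had 6.08, 5.76 and 6.04 in Ota cells, against 4.51, 5.01 and 5.07 in control cells. Its groups did not overlap either, and the difference was 1.10 ± 0.15, or 2.14-fold (adjusted p = 0.000344).

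The atypical repressors differed more between the groups than the activators did, in fitted size. E2F7 on 228033_at had 8.25, 8.42 and 8.25 in Ota cells, against 6.31, 6.62 and 6.09 in control cells at 72 h. The difference was 1.96 ± 0.14, or 3.90-fold (adjusted p = 5.91e-06). E2F8 on 219990_at had 8.05, 7.78 and 8.01 in Ota cells, against 4.94, 6.39 and 5.71 in control cells. The control arrays of E2F8 spread over more than the Ota arrays did, with an SD of 0.73 against 0.15 in Ota cells, and still lay below all of them. The difference was 2.26 ± 0.29, or 4.80-fold (adjusted p = 0.000284).

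Both E-type cyclins were higher in Ota cells. CCNE1 on 213523_at had 7.15, 6.95 and 6.96 in Ota cells, against 5.45, 5.53 and 5.26 in control cells at 72 h. The difference was 1.61 ± 0.11, or 3.05-fold (adjusted p = 4.76e-06). CCNE2 was read by a pair of probe sets, of which 205034_at had 9.61, 9.87 and 9.71 in Ota cells, against 7.37, 7.66 and 7.82 in control cells. The other, 211814_s_at, had 7.75, 8.16 and 7.55 in Ota cells, against 4.97, 5.29 and 4.83 in control cells. The probe sets gave differences of 2.11 ± 0.16 (4.33-fold, adjusted p = 1.2e-05) and 2.79 ± 0.29 (6.91-fold, adjusted p = 7.12e-05), and 2.79 was the highest value among the member probe sets.

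The loaders of the MCM helicase gave mixed values. CDC6 on 203967_at had 8.88, 9.67 and 9.57 in Ota cells, against 8.65, 8.26 and 9.09 in control cells at 72 h. The groups overlapped, because Ota replicate 1 lay below control replicate 3. The difference of 0.70 (95% interval 0.10 to 1.31) did not pass the test (adjusted p = 0.0815). It passed when Ota replicate 1 was left out (0.95, adjusted p = 0.0353) and when control replicate 3 was left out (0.91, adjusted p = 0.0492). The second CDC6 probe set, 203968_s_at, gave 0.57 (-0.03 to 1.17, adjusted p = 0.148), and its arrays also overlapped.

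CDT1 was read differently by its probe sets. On 228868_x_at it had 9.82, 9.81 and 9.84 in Ota cells, against 9.02, 9.20 and 8.90 in control cells at 72 h. The difference was 0.78 ± 0.13, or 1.72-fold (adjusted p = 0.00132), and the arrays did not overlap. On 209832_s_at it had 6.88, 7.67 and 6.86 in Ota cells, against 6.86, 6.86 and 6.32 in control cells. That difference of 0.46 (-0.18 to 1.10) did not pass (adjusted p = 0.276). Across the 12 arrays the probe sets correlated at only 0.0769, whereas the paired probe sets of DTL, CCNE2, CDC6 and E2F1 correlated at 0.991, 0.961, 0.885 and 0.735. The _x_ in the name of 228868_x_at marks probes that may also match other transcripts, so the CDT1 values are less certain than those of the other members.

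CDC45 and DTL, which act once origins fire, were higher in Ota cells than in control cells on every probe set. CDC45 on 204126_s_at had 7.62, 7.85 and 7.82 in Ota cells, against 5.94, 5.88 and 5.85 in control cells at 72 h. The difference was 1.87 ± 0.13, or 3.65-fold (adjusted p = 5.74e-06). DTL on 218585_s_at had 11.01, 11.16 and 11.10 in Ota cells, against 9.46, 9.49 and 9.17 in control cells. Its difference was 1.72 ± 0.11, or 3.28-fold (adjusted p = 3.46e-06), and 222680_s_at gave 1.76 ± 0.14, or 3.39-fold (adjusted p = 1.2e-05). The arrays of the groups did not overlap for either gene. In all, 12 of the 15 probe sets had every Ota array above every control array, and 0 the reverse, against 26.3% and 22.9% of all probe sets. The 12 include 2028_s_at of E2F1, which met the filter mainly through the Ota cells at 72 h, so it adds no support.

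The 4 probe sets that did not pass the filter stayed near the floor on all 12 arrays. They were 242105_at of CCNE1 (2.28 to 2.32), 207042_at of E2F2 (2.16 to 2.20), 235582_at of E2F2 (3.12 to 3.46) and 241725_at of E2F7 (2.40 to 2.77). They gave no reading of their genes, and averaging them in reduced the 72 h differences to 0.80 for CCNE1, 0.36 for E2F2 and 0.98 for E2F7, all still higher in Ota cells.

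**Figure D2:**
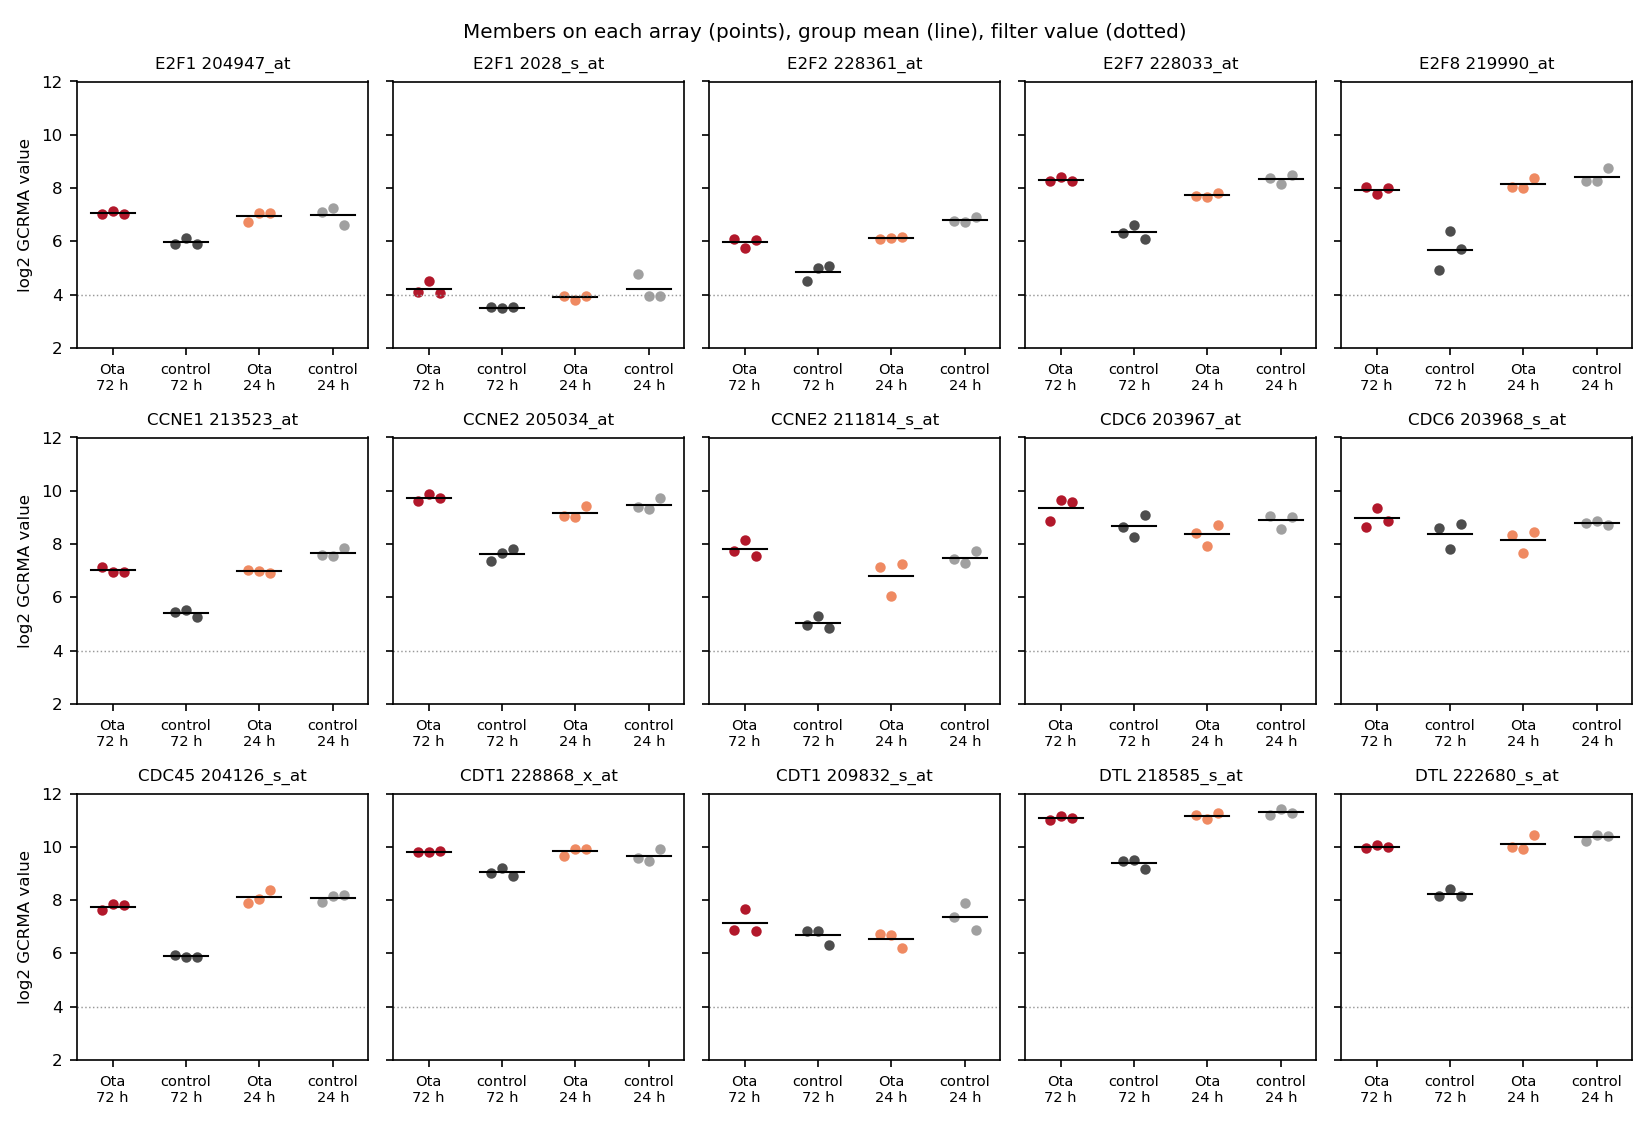
Log2 level of the 15 member probe sets above the filter, with 1 point per array, a line at the mean of 3 arrays and a dotted line at the filter value of 4, in Ota cells and control cells at 72 h and at 24 h. The 72 h controls have the lowest mean in every panel except those of CDC6 and 209832_s_at of CDT1.

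The second comparison asked whether the genes had already changed after 24 h, and most had not passed the test. At 24 h, 0 of the 15 probe sets were higher in Ota cells, 3 were lower (E2F2, E2F7 and CCNE1) and 12 did not pass. Of all probe sets tested, 12.9% were higher and 18.1% lower. The share of members that were lower was close to that of the whole array, so the count alone sets them apart little. The median difference over the 15 probe sets was -0.33, against -0.02 over all probe sets, with a range of -0.83 to 0.18. In 6 of the 15 probe sets every Ota array lay below every control array, against 23.2% of all probe sets.

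CCNE1 had 7.04, 6.97 and 6.93 in Ota cells, against 7.60, 7.57 and 7.84 in control cells at 24 h. It was lower by 0.69 on the log2 scale with an SE of 0.11 (adjusted p = 0.000648). E2F2 had 6.08, 6.14 and 6.17 in Ota cells, against 6.77, 6.74 and 6.92 in control cells. It was lower by 0.68 with an SE of 0.15 (adjusted p = 0.00485). E2F7 had 7.70, 7.68 and 7.82 in Ota cells, against 8.37, 8.15 and 8.49 in control cells. It was lower by 0.60 with an SE of 0.14 (adjusted p = 0.00652). In each of these 3 genes the groups did not overlap at 24 h, and all 3 were higher in Ota cells at 72 h. E2F1, E2F8 and CCNE2, of the same classes, were not called at 24 h, as given below. The E2F7 value was -0.25 and did not pass (adjusted p = 0.0591) when its floor probe set was averaged in.

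The other members differed less at 24 h, or with more spread. E2F1 on 204947_at had 6.73, 7.05 and 7.06 in Ota cells, against 7.09, 7.24 and 6.61 in control cells, a difference of -0.03 (-0.38 to 0.31, adjusted p = 0.912). E2F8 had 8.05, 8.02 and 8.37 in Ota cells, against 8.26, 8.25 and 8.76 in control cells (-0.28, interval -0.93 to 0.37, adjusted p = 0.53). CDC45 had 7.88, 8.05 and 8.37 in Ota cells, against 7.93, 8.14 and 8.20 in control cells (0.01, interval -0.28 to 0.30, adjusted p = 0.967). The arrays of these 3 genes overlapped between the groups. DTL on 218585_s_at had 11.18, 11.03 and 11.26 in Ota cells, against 11.21, 11.40 and 11.26 in control cells (-0.13, interval -0.38 to 0.11, adjusted p = 0.42).

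CCNE2 gave -0.31 on 205034_at (adjusted p = 0.193) and -0.69 on 211814_s_at (-1.32 to -0.05, adjusted p = 0.0983). The second CCNE2 probe set had 7.13, 6.04 and 7.24 in Ota cells, against 7.45, 7.29 and 7.72 in control cells, and the value was -0.30 (adjusted p = 0.332) without Ota replicate 2, the low array of its group. CDC6 gave -0.53 and -0.63 on its probe sets (adjusted p = 0.181 and 0.105). Without Ota replicate 3, the count of probe sets called lower was 5 in place of 3. Then 211814_s_at (-0.91, adjusted p = 0.0456) and 222680_s_at of DTL (-0.39, adjusted p = 0.0337) also passed.

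CDT1 on 209832_s_at had 6.72, 6.69 and 6.20 in Ota cells, against 7.36, 7.88 and 6.86 in control cells at 24 h. Its difference of -0.83 (-1.47 to -0.19) lay just above the threshold (adjusted p = 0.0513), and it passed with the replicate number as a block (adjusted p = 0.00401). It also passed without control 24 h replicate 3 (-1.08, adjusted p = 0.019) and without Ota 72 h replicate 2 (adjusted p = 0.0332), an array that enters only through the spread. On 228868_x_at the difference was 0.18 (-0.11 to 0.47, adjusted p = 0.348).

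**Figure D3:**
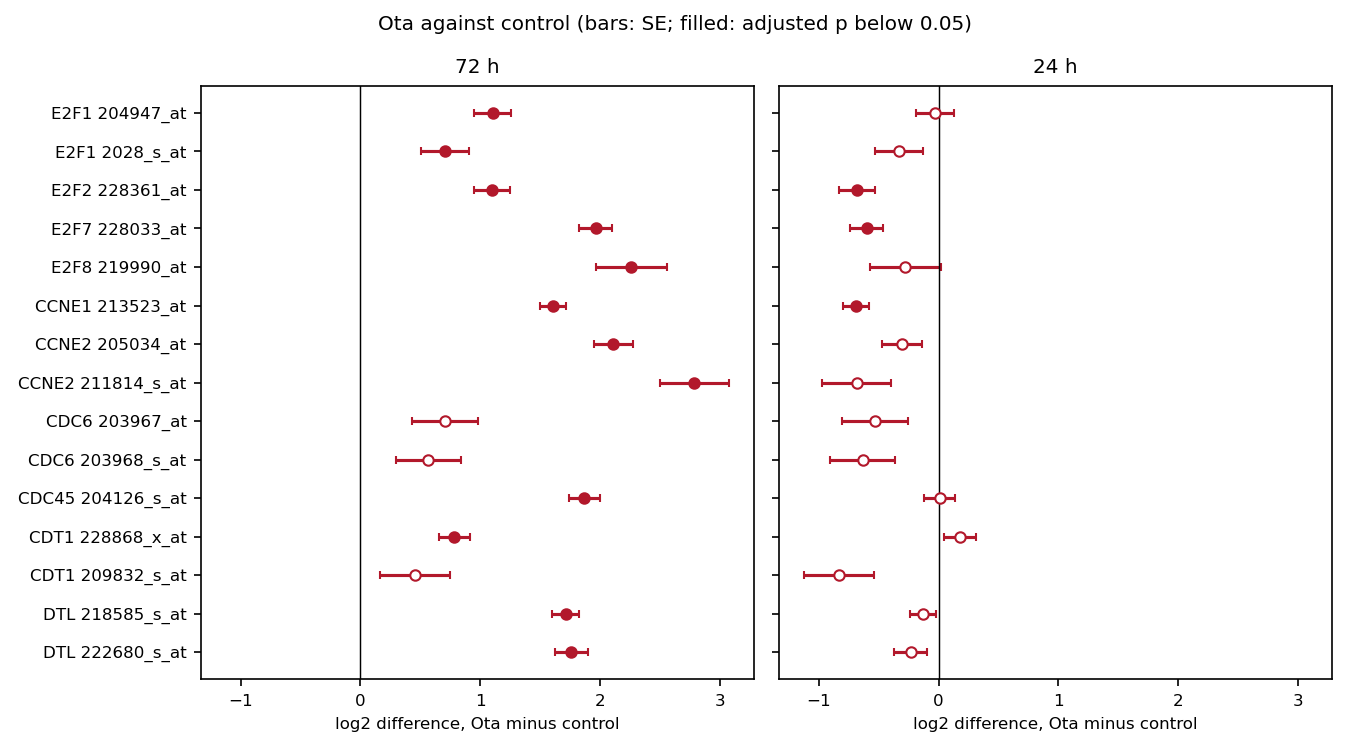
Difference of Ota cells from control cells on the log2 scale for each member probe set at 72 h and at 24 h, with bars of 1 SE from limma and filled points where the adjusted p was below 0.05. At 72 h the values run from 0.46 to 2.79, and at 24 h from -0.83 to 0.18.

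The difference between the responses was tested directly, as the 72 h response minus the 24 h response. It was positive and passed in 12 of the 15 probe sets, and 0 passed in the other direction (11 of 14 without 2028_s_at of E2F1), while 11.2% of all probe sets tested passed upward and 5.77% downward. The values ranged from 0.61 ± 0.19 for CDT1 on 228868_x_at (adjusted p = 0.0462) to 3.47 ± 0.41 for CCNE2 on 211814_s_at (adjusted p = 0.000619), and the median was 1.85, against 0.05 over all probe sets. CCNE1 gave 2.30 ± 0.15 (adjusted p = 3.53e-05) and E2F7 gave 2.57 ± 0.19 (adjusted p = 6.55e-05). Both CDC6 probe sets, at 1.23 and 1.20, lay just above the threshold (adjusted p = 0.0532 and 0.0555), as did 209832_s_at of CDT1 at 1.29 (adjusted p = 0.0548). With the replicate number as a block, 203967_at of CDC6 (adjusted p = 0.0308) and 209832_s_at of CDT1 (adjusted p = 0.00636) passed.

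The results near the threshold turned on processing choices and on single arrays. CDC6 on 203967_at passed with the brightest probe set of each gene (adjusted p = 0.0408), the mean of its probe sets (0.0372), a stricter filter of log2 6 (0.042) and an intensity trend (0.0405), and 203968_s_at with the stricter filter (0.044) and the trend (0.0428). CDT1 on 228868_x_at did not pass with no filter (adjusted p = 0.103) or with arrays shifted to a common median (0.0892). The CDT1 value on 228868_x_at lost its call in 9 of the 12 fits that left out 1 array (adjusted p up to 0.102), and kept it only without control 72 h replicate 2, Ota 24 h replicate 3 or control 24 h replicate 2. CDC6 on 203967_at gained a call without Ota 72 h replicate 1, control 72 h replicate 3, Ota 24 h replicate 3 or control 24 h replicate 2. CDC6 on 203968_s_at gained one without control 72 h replicate 3 or Ota 24 h replicate 3. CDT1 on 209832_s_at gained one in 1 of the 12 fits (adjusted p = 0.027).

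The levels over time show which group moved. In control cells the members were lower at 72 h than at 24 h: 12 of the 15 probe sets fell (11 of 14 without 2028_s_at of E2F1), 0 rose and 3 did not pass, while 19.7% of all probe sets fell and 20.2% rose. The median change was -1.92, against 0.00 over all probe sets. In 13 of the 15, every array at 72 h lay below every array at 24 h, against 24.8% of all probe sets. The reverse held in 0, against 26.1%. The 13 include 2028_s_at of E2F1, whose 72 h control arrays were all under the filter, so it adds no support. In Ota cells most members did not pass: 5 of the 15 rose, 0 fell and 10 did not pass, while 17.7% of all probe sets rose and 9.94% fell, and the median change was 0.13, against 0.05 over all probe sets. There 7 of the 15 had every array at 72 h above every array at 24 h and 1 had the reverse, against 27.4% and 20.4% of all probe sets. The 7 include 2028_s_at of E2F1, which met the filter mainly through the Ota cells at 72 h, so it adds no support. These comparisons share their arrays with the Ota comparisons above, so the same 72 h control values stand behind the fall in control cells and the higher values of Ota cells at 72 h.

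In control cells the fall was steepest in fitted size for E2F8. It had 4.94, 6.39 and 5.71 at 72 h, against 8.26, 8.25 and 8.76 at 24 h, a change of -2.74 ± 0.29 (adjusted p = 4.07e-05). CCNE1 changed by -2.26 ± 0.11 (adjusted p = 6.24e-07), CDC45 by -2.20 ± 0.13 (adjusted p = 1.47e-06) and E2F7 by -1.99 ± 0.14 (adjusted p = 3.33e-06). DTL changed by -1.92 ± 0.11 and -2.11 ± 0.14 on its probe sets, and CCNE2 by -1.86 ± 0.16 and -2.46 ± 0.29. E2F2 changed by -1.94 ± 0.15 and E2F1 by -1.005 ± 0.16 on 204947_at.

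The licensing factors moved least in control cells. CDC6 on 203967_at had 8.65, 8.26 and 9.09 at 72 h, against 9.07, 8.58 and 9.03 at 24 h, a change of -0.22 (-0.83 to 0.39, adjusted p = 0.557). Its second probe set changed by -0.39 (adjusted p = 0.28). CDT1 fell by 0.62 with an SE of 0.13 on 228868_x_at (adjusted p = 0.00337). On 209832_s_at it changed by -0.69, which did not pass (adjusted p = 0.0826) but did with the replicate number as a block (adjusted p = 0.00802) and when control 24 h replicate 3 was left out (-0.94, adjusted p = 0.0276).

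In Ota cells the genes that rose over time were E2F7, CCNE2 and CDC6. E2F7 had 8.25, 8.42 and 8.25 at 72 h, against 7.70, 7.68 and 7.82 at 24 h, a change of 0.57 ± 0.14 (adjusted p = 0.0114) that kept its call in every fit without 1 array but was 0.21 and not called (adjusted p = 0.103) when its floor probe set was averaged in. CCNE2 changed by 0.56 ± 0.16 (adjusted p = 0.0278) on 205034_at. That call was lost in 4 of the 12 fits without 1 array (adjusted p up to 0.1), with no filter (0.0817) and with a common median (0.0587). On 211814_s_at CCNE2 changed by 1.02 ± 0.29 (adjusted p = 0.0241). The call of 211814_s_at was lost in 3 of the 12 fits without 1 array (adjusted p up to 0.0922) and with no filter (0.0918). Its value was 0.63 (adjusted p = 0.0547) without Ota 24 h replicate 2, the low array of its group. CDC6 on 203967_at had 8.88, 9.67 and 9.57 at 72 h, against 8.43, 7.94 and 8.72 at 24 h, a change of 1.01 ± 0.28 (adjusted p = 0.0205), and 203968_s_at changed by 0.81 ± 0.27 (adjusted p = 0.0475). The CDC6 value on 203967_at lost its call without Ota 72 h replicate 2 or 3 or Ota 24 h replicate 2 (adjusted p up to 0.0832) and with no filter (0.0806).

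The count of 5 in Ota cells depended on single arrays. It was 1 without Ota 72 h replicate 2 and 1 without Ota 24 h replicate 2, 2 without Ota 72 h replicate 3, and 3 without Ota 72 h replicate 1 or Ota 24 h replicate 1. The second CDC6 probe set lost its call in 9 of the 12 fits, keeping it only without control 72 h replicate 2 or 3 or Ota 24 h replicate 3. The other members did not pass, with E2F1 at 0.13 (-0.21 to 0.48), CCNE1 at 0.04 (-0.20 to 0.28), DTL at -0.07 and -0.11, E2F2 at -0.17, E2F8 at -0.20 and CDC45 at -0.34 (adjusted p = 0.0747). CDC45 passed, as lower, without Ota 24 h replicate 1 (-0.45, adjusted p = 0.0372). CDT1 gave -0.01 on 228868_x_at and 0.60 on 209832_s_at (adjusted p = 0.958 and 0.148).

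**Figure D4:**
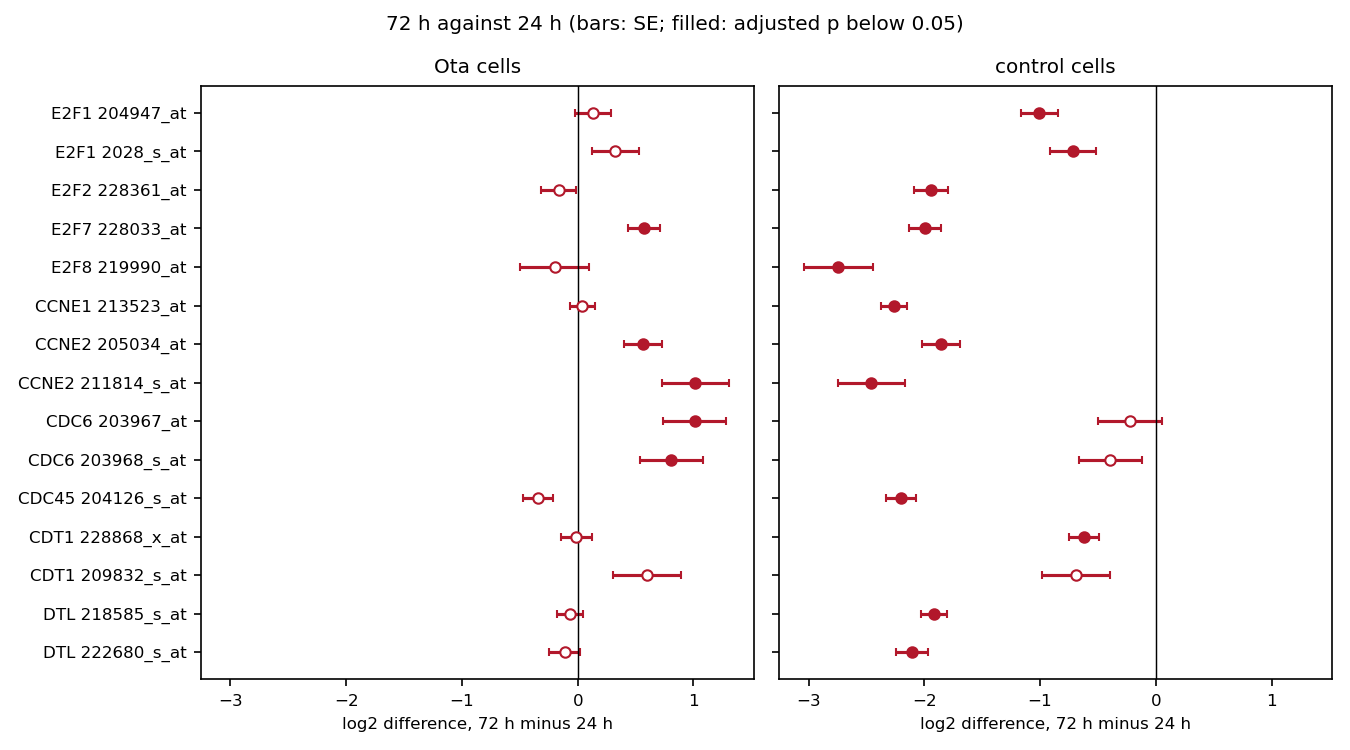
Change between 24 h and 72 h on the log2 scale for each member probe set, as 72 h minus 24 h, in Ota cells and in control cells, with bars of 1 SE from limma and filled points where the adjusted p was below 0.05. The median is 0.13 in Ota cells and -1.92 in control cells.

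The members followed each other across the 12 arrays to different degrees. The correlation of a gene's brightest probe set with the mean of the other members was 0.977 for CCNE2, 0.975 for E2F7, 0.968 for DTL, 0.953 for CDC45, 0.949 for E2F8 and 0.945 for CCNE1. It was 0.897 for E2F1, 0.879 for E2F2 and 0.869 for CDT1, and it was 0.202 for CDC6. These arrays share their 4 groups, so the correlations mostly describe the group means. Among 10689 other genes, those with the pattern most like the mean of the 10 members were ZNF367 (r = 0.988), CDCA7 (0.987), GMNN (0.984), RIBC2 (0.982), SKA1 (0.981) and C2CD3 (0.977). ZNF367 averaged 9.15 in Ota cells and 7.24 in control cells at 72 h, and 9.04 in Ota cells and 9.35 in control cells at 24 h. RIBC2 averaged 8.38 in Ota cells and 6.14 in control cells at 72 h, and 8.13 in Ota cells and 8.32 in control cells at 24 h. GMNN encodes geminin, which binds CDT1 and blocks loading of the helicase.

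Other genes of the same pathway were read from 5 lists of regulators, loaders, firing factors, degradation factors and further E2F targets, which held 75 genes, of which 71 could be tested on their brightest probe set. At 72 h, 45 of the 71 were higher and 1 lower in Ota cells, against 15.7% and 13.7% of 10699 genes. At 24 h, 3 were higher and 19 lower, against 8.94% and 20.9% of all genes. The difference of responses passed upward in 45 and downward in 0, against 13.7% and 4.91%. In control cells over time 7 were higher and 51 lower at 72 h, against 21.5% and 22.6% of all genes. In Ota cells over time 7 were higher and 12 lower, against 20.4% and 8.86%. These totals include TICRR and GINS4, which had a mean under the filter value in at least 1 group. Without them, the difference of responses passed upward in 43 of 69 genes and downward in 0. At 24 h 17 of the 69 were then lower, and in control cells over time 49 were lower. The other counts did not change.

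Among 13 tested E2F and DREAM regulators, 5 were higher and 0 lower at 72 h, with a median of 0.28 (0.01 over all genes). Over all genes 15.7% were higher and 13.7% lower. The DP partner TFDP1 averaged 10.4 in Ota cells and 9.73 in control cells, a difference of 0.63 ± 0.09 (adjusted p = 0.000693). MYBL2, an E2F target that joins the MuvB complex, averaged 8.57 in Ota cells and 7.27 in control cells, a difference of 1.30 ± 0.15 (adjusted p = 0.00015). The activator E2F3 gave 0.28 ± 0.13 and E2F5, a partner of the pocket proteins, gave -0.27 ± 0.11; neither passed (adjusted p = 0.127 and 0.0885), and E2F4 was below the filter. E2F3 passed as the mean of its probe sets (0.35, adjusted p = 0.0261), and E2F5 passed after quantile normalization (-0.32, adjusted p = 0.0348) or a shift to a common median (-0.34, adjusted p = 0.0272). At 72 h E2F1, E2F2, E2F7, E2F8 and TFDP1 were thus higher in Ota cells than in control cells, while E2F3 and E2F5 were not called. A difference between these genes was not tested. From 24 h to 72 h TFDP1 changed by -0.29 in Ota cells (adjusted p = 0.0409) and by -0.85 in control cells (adjusted p = 4.95e-05).

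Of 13 genes of origin recognition and helicase loading, 9 were higher and 0 lower at 72 h, with a median of 0.86. Over all genes 15.7% were higher and 13.7% lower. ORC1, the largest subunit of the origin recognition complex, averaged 7.41 in Ota cells and 5.84 in control cells (1.57 ± 0.24, adjusted p = 0.000786). Geminin averaged 10.7 in Ota cells and 9.76 in control cells (0.97 ± 0.11, adjusted p = 0.000149). Of the loaders among the members, CDT1 was higher on 228868_x_at only, and CDC6 was not called. The helicase subunits MCM5 and MCM6 were 0.98 ± 0.10 and 0.86 ± 0.09 higher on the log2 scale, and the mean of the MCM6 probe sets gave 1.95. Of 16 origin firing genes, 13 were higher and 0 lower (median 0.96): MCM10, which helps to activate the helicase, was 6.48-fold higher (2.70 ± 0.18), with 7.24 in Ota cells and 4.55 in control cells, and GINS3, a subunit of the same helicase as CDC45, was 2.56-fold higher.

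Of 16 ubiquitin ligase and inhibitor genes that act on the members, 5 were higher and 1 lower at 72 h (median 0.28). Over all genes 15.7% were higher and 13.7% lower. PCNA, the sliding clamp on which the DTL ligase finds CDT1, averaged 13.3 in Ota cells and 12.2 in control cells (1.14 ± 0.14, adjusted p = 0.000217). CDKN1A, which encodes p21, was 1.71-fold higher (0.77 ± 0.13, adjusted p = 0.0011). CUL4B, a scaffold of the CRL4 ligases, was lower by 0.30 with an SE of 0.10 (adjusted p = 0.0406) and lost its call in 7 of the 12 fits without 1 array. Of 14 further E2F targets, 14 were higher at 72 h (median 1.00 and 0 lower), among them CHAF1A, a subunit of the chromatin assembly factor (2.25-fold), and ATAD2, a chromatin ATPase (2.94-fold).

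At 24 h 2 of 13 regulators were higher and 2 lower, and of 13 loading genes 0 and 4. Of 16 firing genes 0 were higher and 7 lower, of 16 degradation genes 1 and 0, and of 14 further targets 0 and 6. Over all genes 8.94% were higher and 20.9% lower at 24 h. TCF19, an E2F target, averaged 6.62 in Ota cells and 8.32 in control cells at 24 h (-1.70 ± 0.18, adjusted p = 4.62e-05). GINS2, of the helicase, averaged 9.07 in Ota cells and 10.6 in control cells (-1.51 ± 0.14), though the mean of its probe sets gave -0.63. TK1, thymidine kinase, changed by -1.04 ± 0.12 and MCM5 by -0.40 ± 0.10. The firing factor TICRR averaged 3.91 in Ota cells and 4.80 in control cells; it met the filter mainly through the 24 h controls, so no size is read from it. Without TICRR and GINS4, which were under log2 4 in at least 1 group, 5 of 14 firing genes were lower at 24 h.

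Of the regulators at 24 h, TFDP2, another DP partner, was 2.13-fold higher (1.09 ± 0.13, adjusted p = 0.000105), but 0.22 and not called (adjusted p = 0.201) as the mean of its probe sets. The pocket protein gene RBL2 gave 0.43 ± 0.15 (adjusted p = 0.0448) and lost its call in 11 of the 12 fits without 1 array, with 0.24 without control 24 h replicate 2. LIN37, of the MuvB core, changed by -0.58 ± 0.15 (adjusted p = 0.0141, or 0.0517 without Ota 24 h replicate 3). The CDK inhibitor gene CDKN1C gave 0.66 ± 0.18 (adjusted p = 0.0173), and did not pass without Ota 24 h replicate 2 (0.0676) or control 24 h replicate 1 (0.0626). RBBP4, a histone-binding protein also of that core, and MCM6 gave -0.98 and -0.56 on the brightest probe set but 0.99 and 0.52 as the mean of their probe sets, so their direction at 24 h is not settled by these arrays. E2F3, E2F5, TFDP1, ORC1 and GMNN did not pass at 24 h, with differences of 0.02, 0.18, 0.07, -0.51 and -0.25.

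**Figure D5:**
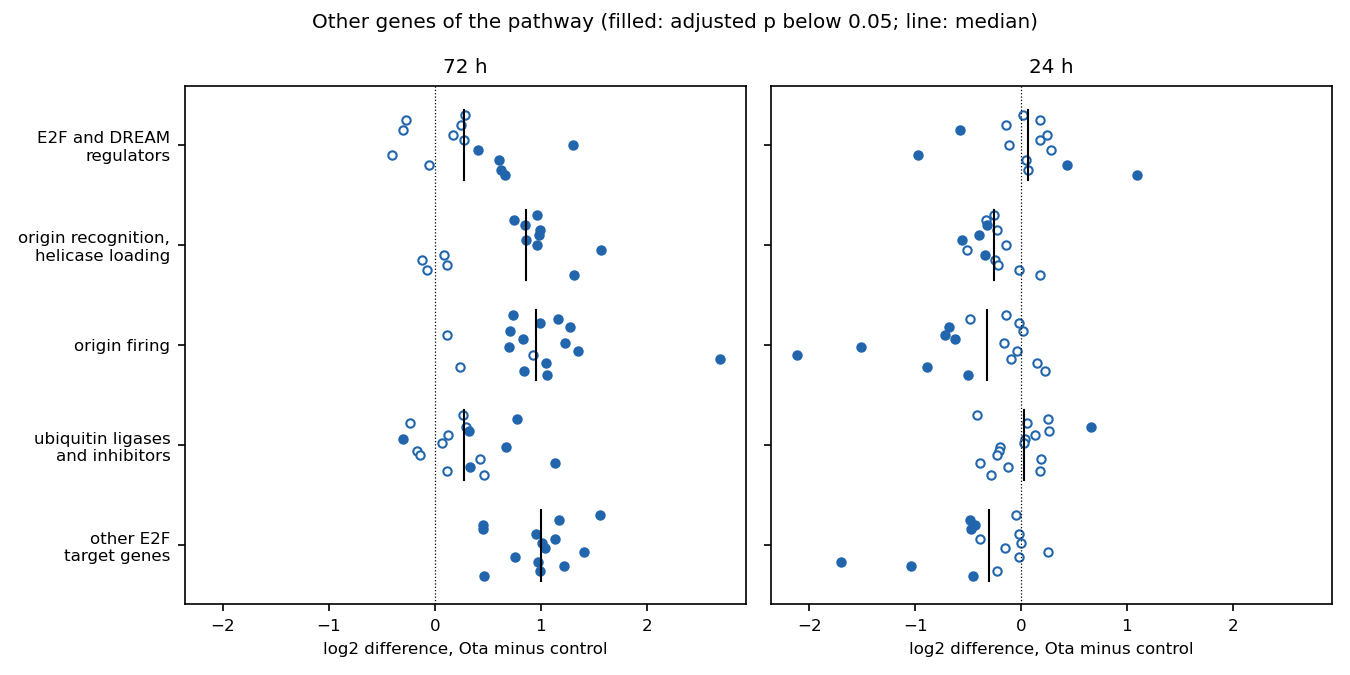
Difference of Ota cells from control cells on the log2 scale for each tested gene of the 5 pathway lists at 72 h and at 24 h, with 1 point per gene on its brightest probe set, filled where the adjusted p was below 0.05, and a line at the list median. At 72 h the list medians run from 0.28 to 1.00.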

How the data were processed

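The arrays are Affymetrix arrays hybridised with biotin-labelled cRNA, 12 in all with 3 in each of 4 groups, a number that limits precision. Values were deposited in log2 units, and GCRMA is named per the submitters' processing notes; its settings and version are not given in the sources used here. Probe sets were named from the platform annotation, with symbols updated through RefSeq gene identifiers: 41091 had 1 symbol, 1801 several and 11721 none, and 62 control probe sets were left out. limma 3.58.1 (R 4.3.3) was fitted to all 12 arrays with 1 mean per group, over 22477 probe sets above log2 4 on at least 3 arrays, with Benjamini-Hochberg adjusted p below 0.05 as a call; figures were drawn with matplotlib 3.10.9. Simulated data with known changes were used to test the fit. Every SE, interval and adjusted p in the text comes from this limma fit, and every SD from the 3 arrays of a group.

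Text names every member probe set, from each pathway list the 2 called genes with the smallest p in each direction for each Ota comparison, E2F3, E2F4, E2F5, TFDP1, GMNN and ORC1 whatever their values, and the 6 genes most like the members. The members and lists were chosen with earlier results of these data known. The groups share replicate numbers. Deviations of same-numbered arrays from their group means correlated at 0.452, 0.347 and 0.480 between Ota and control cells at 24 h. They correlated at 0.286, 0.120 and 0.248 between control cells at 72 h and 24 h. For control cells at 72 h with Ota cells at 24 h the values were 0.283, 0.295 and 0.294. The numbers thus appear to pair those arrays. Ota cells at 72 h gave 0.0999, -0.0384 and 0.176 with control cells at 72 h. With Ota cells at 24 h they gave 0.138, -0.080 and 0.048, and with control cells at 24 h 0.117, 0.059 and 0.136. Whether the numbers pair the Ota arrays at 72 h is not settled by these values. Of 18 such pairs, 13 correlated best with their own number. Alternatives covered the filter, the normalization, the probe set of a gene, an intensity trend, the replicate block and leaving out each array.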

Additional observations from a re-analysis of the deposited data

Results flagged for a closer look

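In 11 member probe sets the Ota response at 72 h differed from that at 24 h by the test of the difference itself (limma, adjusted p below 0.05). The 72 h response minus the 24 h response, on the log2 scale, was 1.14 for E2F1 (204947_at), 1.78 for E2F2, 2.57 for E2F7 and 2.54 for E2F8. It was 2.30 for CCNE1, 2.42 and 3.47 for the probe sets of CCNE2 (205034_at and 211814_s_at), 1.86 for CDC45, 0.61 for CDT1 (228868_x_at), and 1.85 and 1.99 for the probe sets of DTL (218585_s_at and 222680_s_at). The value of 228868_x_at was near the threshold and turned on single arrays. A further E2F1 probe set, 2028_s_at, is left out because it was under the filter in the 72 h controls.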

How the results depend on the processing

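With 20 other settings run, the member probe sets higher at 72 h numbered 9 to 13 (12 in the report), those with a larger response at 72 h than at 24 h 10 to 15 (12), those lower in control cells at 72 h than at 24 h 9 to 13 (12) and those lower in Ota cells at 24 h 2 to 5 (3); the lower ends come partly from settings with 1 value per gene, which hold 10 members. Leaving out probe sets with a group mean under log2 4, chosen after seeing the data, removed 2028_s_at of E2F1 and gave 11, 11, 11 and 3 of 14. Leaving out each array gave 11 to 13, 10 to 14, 12 to 13 and 3 to 5. The least stable counts were those of Ota cells over time. Called higher were 5 in the report, 3 with the brightest probe set of a gene, 2 with the mean of its probe sets, 1 with no filter, 3 with arrays shifted to a common median, and 1 to 5 without single arrays. Called lower were 0 in the report, 1 after quantile normalization, 1 with the common median and 0 to 1 without single arrays.

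The replicate block gave 13 higher at 72 h, 4 lower at 24 h, 14 with a larger response at 72 h, 13 lower in control cells over time, and 5 higher and 1 lower in Ota cells over time; the lower one was CDC45. Beside the CDT1 and CDC6 calls given in the report, CDC6 on 203967_at passed under the block at 72 h (adjusted p = 0.0475), 209832_s_at of CDT1 passed in Ota cells over time (0.022), CDC45 passed there as lower (0.0444), and 203968_s_at of CDC6 lost its call there (0.0535). It changed no other member call.

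Averaged over their probe sets, RBBP4 and MCM6 at 24 h reversed, at 0.99 and 0.52 in place of -0.98 and -0.56; the cause was not tested. Over all features, 6344 probe sets were called at 72 h and 6971 at 24 h, against 3421 and 3317 with 1 probe set a gene and 3181 and 3048 with gene means, where fewer features are tested. Values below about log2 4 carry little signal over background, which limits the dim probe sets. The dose is not stated.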
